A study of Mus musculus with 2 samples.

Results

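The ribosomal protein genes were examined in nascent RNA from mouse macrophages before and 1 h after interleukin-4 (IL-4). Members were all gene names attached to the called transcripts that began with Rpl or Rps followed by a digit or by p, with the ribosomal S6 kinases left out. This gave 82 of the 11054 gene names found in either library, of which 77 of 9827 names were present in the control library and 79 of 10106 in the IL-4 library. Of these, 74 had a value in both libraries.

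The ribosome is built from ribosomal RNA and ribosomal proteins, which assemble into a small subunit that reads the messenger RNA and a large subunit that forms the peptide bond. Genes for ribosomal proteins are short, are transcribed in every growing cell, carry a run of pyrimidines at the start of their RNA (the 5′ TOP sequence, through which the mTOR pathway controls translation) and often hold small nucleolar RNAs (snoRNAs) in their introns. In macrophages IL-4 signals mainly through the transcription factor STAT6 and drives the alternative state of polarization.

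Both libraries came from bone marrow-derived macrophages of wild type mice on the C57BL/6 background, aged 8 to 12 weeks, differentiated for 6 days in medium with L929 cell supernatant as the source of M-CSF. One library came from unstimulated cells (control) and the other from cells given 20 ng/ml IL-4 for 1 h (IL4_1h). RNA made by engaged polymerases was labelled in a nuclear run-on (GRO-seq), and about 100 ng of it went into a library. Duplicate run-on reactions were pooled before sequencing, so each condition was 1 library, no difference below has a replicate check, and no test across conditions was made. Less RNA per cell and fewer active cells cannot be told apart in such bulk material.

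The files listed 43122 called transcripts in the control library and 51365 after IL-4, each with a score printed to 1 decimal, a position in the GRCm38 (mm10) genome and the name of the nearest gene. The number of reads behind a score was not given, so the depth is unknown. Of 10 macrophage marker genes, 8 had a named transcript in both libraries. Among them was Csf1r (the M-CSF receptor), with scores of 5.6 in the control and 4.6 after IL-4. Adgre1 and Spi1 had none under those names. A transcript named after the nearest gene can lie outside it, so all marker calls are by name alone. None of 4 fibroblast markers was called. Over all genes called in a library the median score was 0.5 in the control and 0.3 after IL-4. Of the T cell list Cd8a alone was called (0.6 and 0.8), and of the B cell list Cd79a alone (0.4 and 0.4). The granulocyte genes S100a8 (0.5 and 0.3) and Mpo (0.6, control library alone) were called as well. The part of such cells in the results was not tested.

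Each gene took the score of its highest-scoring named transcript. On this scale the median ribosomal protein gene had a score of 0.5 in the control library and 0.5 after IL-4, whereas the median over all 8879 genes with a value in both libraries was 0.5 and then 0.4. The uncentred log2 ratio of IL-4 over control had a median of 0 for the ribosomal protein genes and of -0.38 for all genes. The middle score of the ribosomal protein genes was thus equal in both libraries, while that of all genes was lower after IL-4. As the scaling of the scores between the libraries was not stated, ratios below are given relative to the median gene (centred log2 ratio).

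The centred ratio of the 74 ribosomal protein genes had a median of 0.38, with the quartiles at -0.03 and 0.85 and the whole range from -1.21 to 1.38. A gene with equal scores in both libraries has a ratio of 0.38, so this median lies on a step shared by 16 members. Above the median gene lay 54 members (73.0%, against 49.8% of all genes), 19 lay below it and 1 was level with it. At least 2-fold higher than the median gene were 8 members (10.8%), against 8.06% of all genes, and at least 2-fold lower were 3 members (4.05%), against 8.62% of all genes. The share above the median gene differed more from that of all genes than the shares past 2-fold did.

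Uncentred, 30 of the 74 members had a higher score after IL-4, 16 had the same score and 28 a lower one. Among all genes 22.0% were higher, 18.5% equal and 59.5% lower. A score printed as 0.3 can stand for any value between its rounding limits, which are 0.05 away on either side. When this was carried into the ratios, 42 members stayed at or above the median gene over the whole rounding range, 6 stayed at or below it, and 26 (35.1%, against 38.6% of all genes) could lie on either side. At least 2-fold higher over their whole rounding range were 2 members (2.7%, against 3.67% of all genes), and 0 were at least 2-fold lower (against 3.85%).

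**Figure D1:**
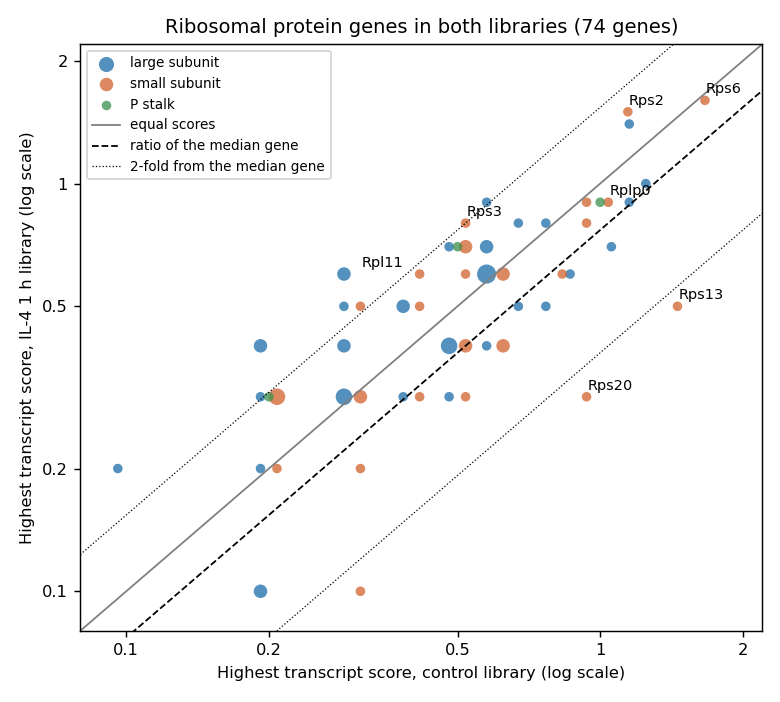
Highest transcript score of the 74 ribosomal protein genes in the control library (x axis, log scale) and the IL-4 1 h library (y axis, log scale). Larger points hold several genes with the same pair of scores, and the subunits are shifted slightly sideways; most points lie above the dashed line that marks the ratio of the median gene, and Rps13 and Rps20 lie below the lower 2-fold line.

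Both subunits had the same middle, which is the value of any gene with equal scores in both libraries. The 40 large subunit genes had a median centred ratio of 0.38, with 6 members (15.0%) at least 2-fold higher and 0 at least 2-fold lower. The 31 small subunit genes also had a median of 0.38, with 2 (6.45%) at least 2-fold higher and 3 (9.68%) at least 2-fold lower. Among all genes the shares were 8.06% and 8.62%, to which those of the small subunit were close. The acidic stalk of the large subunit, which recruits and activates the translational GTPases, was covered by 3 genes. Rplp0, its base, had scores of 1.0 and 0.9, Rplp1 had 0.2 and 0.3, and Rplp2 had 0.5 and 0.7. All of them lay above the median gene, by 0.23 to 0.96 on the log2 scale.

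The highest ratios were shared by 5 large subunit names with a centred log2 ratio of 1.38. Rpl11, a large subunit protein that also binds and inhibits Mdm2 when it is free of the ribosome, had scores of 0.3 in the control and 0.6 after IL-4. Rpl23a, which lies beside the peptide exit tunnel, had the same pair of scores, 0.3 and 0.6. These were the 2 members that kept a 2-fold difference over the whole rounding range, from 1.03 to 1.76.

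Rpl13 and Rpl36al, a close paralog of Rpl36a, both had scores of 0.2 and 0.4. Rpl36 had 0.1 and 0.2, which are the lowest steps of the scale, and its rounding range ran from 0.38 to 2.70. The ratios of these genes therefore rested on 1 or 2 steps of the printed score.

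Next in order came Rpl41, which encodes the smallest ribosomal protein, and the small subunit gene Rps15a, each with scores of 0.3 and 0.5 and a centred ratio of 1.12. Rps3, a small subunit protein at the entry of the mRNA channel, followed with 0.5 and 0.8 (1.06, rounding range 0.83 to 1.30). Just under the threshold, at 0.96, lay 7 members, among them Rpl7a with 0.6 and 0.9 and Rps7 with 0.2 and 0.3. No gap in the order separated the members inside the 2-fold limit from those outside it.

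The 3 members that were at least 2-fold lower were all small subunit genes. Rps20 had scores of 0.9 in the control and 0.3 after IL-4, a centred ratio of -1.21 with a rounding range from -1.55 to -0.90. Rps13 had 1.4 and 0.5, a centred ratio of -1.11 with a rounding range from -1.31 to -0.92. Both scores were well above the lowest step in the control library.

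For each of these 3 genes at least 1 of the transcripts behind the value lay outside the gene. The control transcript of Rps20 was intergenic, in a B1 repeat 29543 bp from the annotated start, whereas its IL-4 transcript lay in intron 1 of Rps20 itself. The Rps13 value came in both libraries from intron 19 of a neighbouring gene, 27251 bp away in the control and 27273 bp away after IL-4. The annotation names the nearest start site, so an unrelated transcript can carry the name of a ribosomal protein gene.

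The remaining low members lay within 2-fold of the median gene. Rpl10, a large subunit protein that joins late in assembly, and Rpl36a had scores of 0.2 and 0.1 and a centred ratio of -0.62, with a rounding range from -1.94 to 0.38. Rpl27a and Rps27a had 0.5 and 0.3 (-0.36), and Rpl31 had 0.8 and 0.5 (-0.30). The Rps27a transcripts lay upstream of the gene and on the opposite strand in both libraries. By position on its own strand, as described below, Rps27a had 0.3 and 0.3 (0.39), above the median gene. The protein of Rps27a is made as a fusion with ubiquitin.

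**Figure D2:**
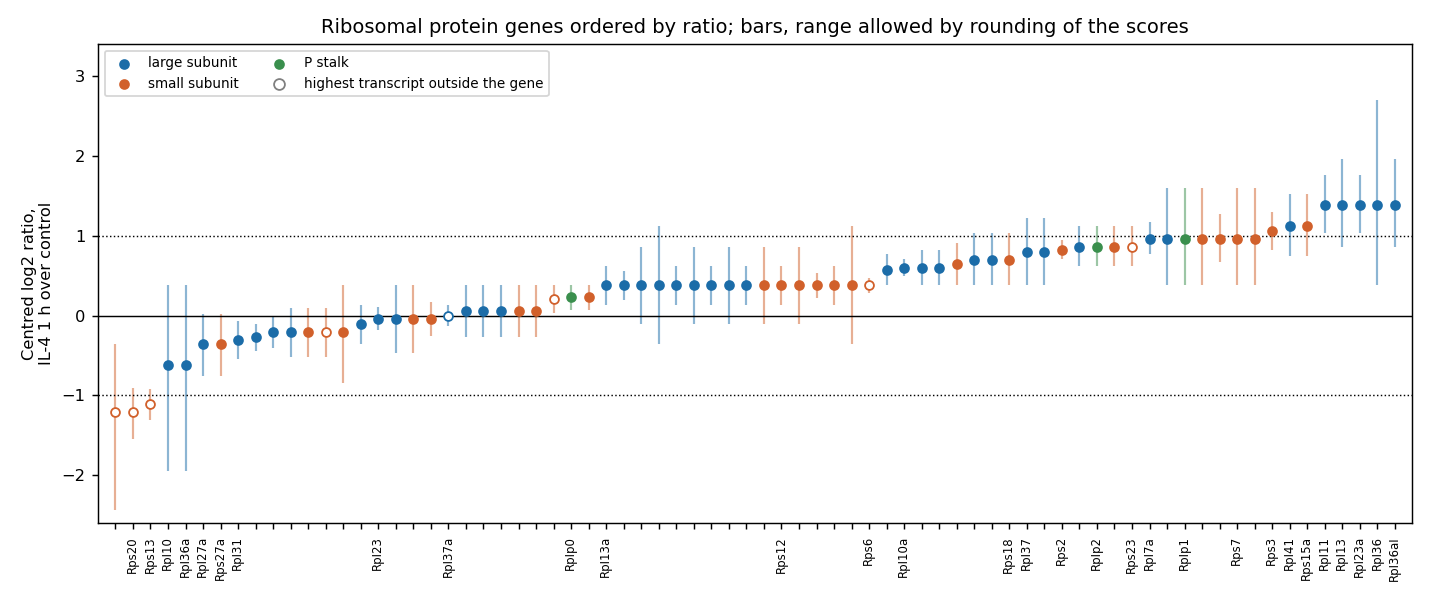
Centred log2 ratio of IL-4 1 h over control (y axis) for the 74 ribosomal protein genes in ascending order (x axis, with the names of genes described in the text); points are the values as deposited and vertical bars the range that rounding of both scores to 1 decimal allows. Open points mark genes whose highest transcript lay more than 1000 bp from the gene in at least 1 library. Genes whose highest transcript lay upstream but nearer than that, such as Rps27a, are filled. The 3 genes under the lower dotted 2-fold line are all open.

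Over the 74 members, the highest-scoring transcript lay elsewhere in at least 1 library for 8 members, 3 of which were at least 2-fold lower and none at least 2-fold higher. The 66 members whose highest transcripts both lay in the gene or within 1000 bp upstream held all 8 of the higher genes and none of the lower ones. Their median was 0.38. The same holds for levels: Rps6, the substrate of the S6 kinases, had the top score of the family with 1.6 in both libraries, but this transcript lay in a LINE repeat 44489 bp away within another gene. On the strand of Rps6 itself the scores were 0.8 and 0.6.

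Of the other members with high control scores, Rpl37a had 1.3 and 1.0 from an intergenic transcript 33269 bp away, against 0.2 and 0.2 within the gene. Rpl10a, a protein of the flexible L1 stalk, had 1.2 and 1.4 from intron 4 of 5, Rpl23 had 1.2 and 0.9, and Rps2 had 1.1 and 1.5. The scores of Rpl10a, Rpl23 and Rps2 came from transcripts in the genes.

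Genes in wide use as references for RNA measurements lay within the range of the other members. Rpl13a had 0.6 in both libraries (centred ratio 0.38, rounding range 0.14 to 0.62), Rps18 had 0.4 and 0.5 (0.70, rounding range 0.38 to 1.03) and Rplp0, given above, had 0.23 with a rounding range from 0.07 to 0.38. The scores of Rpl13a and Rplp0 differed between the libraries by no more than 1 step, as did those of Rps18. Rpl32 had no transcript of its own name and is taken up below.

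Members whose name was called in 1 library alone had scores of 0.4 or less. After IL-4 alone, Rpl4 had a score of 0.3 from a transcript on its own strand, and Rpl17 (0.1), Rpl34-ps1 (0.2) and Rplp2-ps1 (0.2) were also listed. By position, as described below, both libraries had transcripts on the strands of Rpl4 (0.8 and 0.8) and Rpl17 (0.8 and 0.9). The highest of these carried snoRNA names. In the control alone, Rpl39 (0.3), Rps15a-ps6 (0.4) and Rps19-ps3 (0.4) were listed, all from transcripts outside the gene. Names with -ps are pseudogenes, whose sequences resemble the parent messenger RNA, so short reads in one may not be separable from it. The transcripts named Rpl34-ps1, Rps15a-ps6 and Rps19-ps3, however, lay outside the annotated pseudogenes. The distance to the start was 37463 bp for Rps15a-ps6 and 10060 bp for Rps19-ps3. Rplp2-ps1 was not in the gene annotation used.

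Pseudogenes, paralogs and the binding protein Rps19bp1 made up 10 of the 82 names, and 6 of these had values in both libraries. Without them, 68 genes of cytosolic ribosomal proteins remained, with the same median of 0.38, 7 members (10.3%, against 8.06% of all genes) at least 2-fold higher and 3 (4.41%, against 8.62%) at least 2-fold lower.

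The sequences at the starts of these genes are shown for the members at both ends of the order and for the reference genes. The reason is a pyrimidine run near the start, a feature that most but not all of them share outside the choice by name. Of 76 annotated genes of cytosolic ribosomal proteins that fit the naming pattern, 56 matched an entry of the RefSeq promoter table (GRCm38.p6). It holds 250 bases before and 50 after each start. Each line below gives 30 bases, 5′ to 3′ on the strand of the gene. The longest unbroken run of C and T within 50 bases of the annotated start is in capitals, counted to the edge of that stretch. Such a run need not begin at the first base of the RNA, as a 5′ TOP sequence does. Rpl23a, Rpl36, Rps20, Rps27a and Rpl32 matched no entry.
Rpl11 (chr4:136053358-136053387, minus strand): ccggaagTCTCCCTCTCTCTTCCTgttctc
Rpl13 (chr8:123102324-123102353, plus strand): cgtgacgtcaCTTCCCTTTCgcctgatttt
Rpl41 (chr10:128549119-128549148, minus strand): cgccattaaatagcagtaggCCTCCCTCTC
Rps15a (chr7:118116143-118116172, minus strand): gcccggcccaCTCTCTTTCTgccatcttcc
Rps3 (chr7:99483720-99483749, minus strand): tgcaaaacttcaTTTCCCatgaacacttgc
Rps13 (chr7:116334161-116334190, minus strand): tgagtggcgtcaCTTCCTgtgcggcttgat
Rpl10 (chrX:74270836-74270865, plus strand): cgtgagcaggcgtgggagcgTCTCTTTTCC
Rpl36a (chrX:134585672-134585701, plus strand): cggctctagCCTCTCTCTTTCCgagctgct
Rpl27a (chr7:109519186-109519215, plus strand): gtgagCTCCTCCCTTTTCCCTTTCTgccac
Rpl31 (chr1:39367824-39367853, plus strand): ctcgccacaCCTCTTCCTCCTCgcctcccc
Rplp0 (chr5:115559466-115559495, plus strand): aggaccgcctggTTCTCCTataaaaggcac
Rpl13a (chr7:45128722-45128751, minus strand): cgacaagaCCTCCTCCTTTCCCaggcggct
Rps18 (chr17:33955648-33955677, minus strand): gtcacttccgCTCTCTCTTCCacaggaggc
The run was 17 bases long in Rpl11, 10 in Rpl13, Rpl41 and Rps15a, 20 in Rpl27a and 13 in Rpl31 and Rpl36a. It was 6 bases long in Rps3 and Rps13 and 7 in Rplp0. In Rps3, Rpl31, Rpl13 and Rps15a the run began 28, 18, 16 and 15 bases before the annotated start and ended before it. It spanned the start in Rpl27a and Rps18 and began after it in the other genes shown. The place of Rps13 at the low end rests on a transcript outside the gene. Those of Rpl27a, Rps3, Rpl10 and Rpl41 change with the measure. By the highest score on the strand of the gene, described below, Rpl10 had 1.0 and 1.1 (0.52), over Snora70. Rpl41 had 0.6 and 0.5 (0.12), the control score from a transcript named after Zc3h10. Rps3 had 7.7 and 5.6 (-0.07), and Rpl27a is given below.

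Over the 56 promoters the longest run had a median of 11 bases, against 7 over all 32851 promoters in the table. A run of at least 8 bases was present in 48 of them (85.7%, against 35.7% of all promoters). A C at the annotated start followed by 4 further pyrimidines was present in 12 (21.4%, against 2.51%). The annotated start is not always the start that polymerase uses, so the second share depends on the annotation.

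Within the 300 bases, both strands searched, the core of the ETS motif (CCGGAAG) was present in 22 promoters (39.3%, against 8.86% of all). The YY1 core (AAGATGG) was in 8 (14.3%, against 6.34%), the E-box CACGTG in 5 (8.93%, against 7.15%) and TATAAA in 5 (8.93%, against 13.6%). The spaced letters that STAT6 prefers, TTC and GAA with 4 bases between them, were in 5 (8.93%, against 6.95%). These are matches of letters in a window and not sites of binding.

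The median centred ratio, taken on the strand of the gene as described next, was 0.39 for the 22 genes with the ETS core and 0.39 for the 34 without it. It was likewise 0.39 for the 12 genes with a pyrimidine start and for the 44 without one. Every gene with equal scores in both libraries takes this value, so equal medians here do not show that the groups are alike. The quartiles were 0.01 and 0.86 with the ETS core and 0.07 and 0.60 without it. With a pyrimidine start they were -0.03 and 0.71, and without one 0.07 and 0.67. Of the 22 genes with the ETS core 4 were at least 2-fold higher (18.2%), as were 3 of the 34 without it (8.82%), against 7.82% of all annotated genes.

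Because names were given by distance, each annotated gene was also scored by position, as the highest score among transcripts overlapping it by at least 1 bp on its own strand, whatever their name. By this measure 75 of the 76 genes of cytosolic ribosomal proteins had a transcript in the control library and 75 after IL-4. It brought in 4 genes that the names had missed, Rpl3, Rpl26, Rpl32 and Rps27.

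On their own strand, 74 genes had a value in both libraries, with a median score of 0.5 in the control and 0.6 after IL-4. Their median centred ratio was 0.39, and 58 of them (78.4%, against 49.9% of all annotated genes) lay above the median gene. At least 2-fold higher were 10 genes (13.5%), against 7.82% of all 7456 annotated genes with such values, and none was at least 2-fold lower, against 8.3%. Over the whole rounding range 5 genes (6.76%, against 3.7% of all) stayed at least 2-fold higher and 0 at least 2-fold lower (against 3.34%). Rps20 now had scores of 0.2 and 0.3 (0.97) and Rps13 had 0.5 and 0.3 (-0.35), so that neither was at least 2-fold lower. Rpl32, the fourth reference gene, had 0.4 and 0.7 (1.19), from transcripts named after Snora7a.

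The 10 genes were Rpl27a, Rpl37, Rpl11, Rpl13, Rpl36, Rpl39, Rpl23a, Rpl32, Rps23 and Rps15a. Rpl27a had scores of 0.6 and 1.5, the highest centred ratio of the family at 1.71, although its named transcript gave -0.36. Rpl37 had 0.3 and 0.7 (1.61). Rpl39 had 1.1 and 2.1 (1.32) and Rpl23a had 0.5 and 0.9 (1.24). Rpl11 kept its scores of 0.3 and 0.6. Of the 10, 8 encode large subunit proteins and 2, Rps23 and Rps15a, encode small subunit proteins.

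Many of these scores came from transcripts over snoRNAs. Own-strand transcripts numbered 126 in the control and 164 after IL-4, of which 33 and 45 carried a snoRNA name. In 20 genes of the control and 21 of the IL-4 library the highest transcript lay over an annotated snoRNA. Mature snoRNAs are abundant, stable RNAs, and their part in these scores was not tested.

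The 4 genes with the highest own-strand scores of the control library had them over snoRNAs in both libraries. Rpl3, a protein near the peptidyl transferase centre, had 36.4 and 26.7 over Snord83b, and Rps3 had 7.7 and 5.6 over Snord15b. Rpl23 had 3.9 and 4.1 over Snora21, and Rps12 had 3.0 and 1.7 over Snord100. Their centred ratios ran from -0.43 in Rps12 to 0.46 in Rpl23, on both sides of the median gene.

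The 29 genes that hold a snoRNA had a median centred ratio of 0.56, with 6 (20.7%) at least 2-fold higher, and the 45 that hold none had 0.39, with 4 (8.89%) at least 2-fold higher, against 7.82% of all annotated genes. When transcripts over annotated snoRNAs were left out for all genes, 69 ribosomal protein genes kept a value in both libraries. Their median was then 0.42, and 12 (17.4%) were at least 2-fold higher, against 11.8% of all genes, with none at least 2-fold lower, against 8.34%. Of the 12, however, 5 stood at exactly 2-fold, from scores of 0.2 and 0.3, and over the whole rounding range 2 (2.9%, against 3.52% of all genes) stayed higher and 0 lower (against 3.19%). Of the 10 genes higher before, 6 remained so. Rpl37 then had 0.3 and 0.4 (0.83) and Rpl27a fell under the threshold, while Rpl39 and Rpl32 had no value left in at least 1 library. This was a setting chosen after the data were seen. It turned the direction of 3 genes. Rpl27a then had 0.5 and 0.3 (-0.32), Rps3 had 0.5 and 0.8 (1.09) and Rps12 had 0.6 and 0.6 (0.42).

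**Figure D3:**
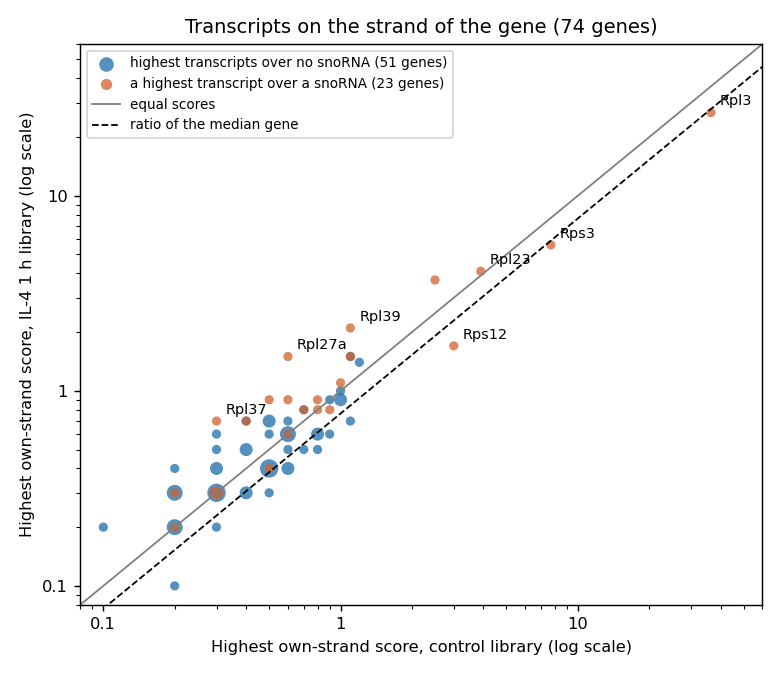
Highest score on the strand of the gene for 74 genes of cytosolic ribosomal proteins in the control library (x axis, log scale) and the IL-4 1 h library (y axis, log scale), with larger points for several genes at the same scores. Orange points are the 23 genes with a highest transcript over a snoRNA in at least 1 library, and they hold the highest scores, up to 36.4 in Rpl3.

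Along the genes, the called transcripts gathered just downstream of the start. Around the start of the principal transcript, coverage on the gene strand peaked between 175 and 200 bp in the control, where 56 of 76 genes (73.7%) were covered, and between 200 and 225 bp after IL-4, where 63 (82.9%) were covered. Farther in, coverage was lower in both libraries.

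**Figure D4:**
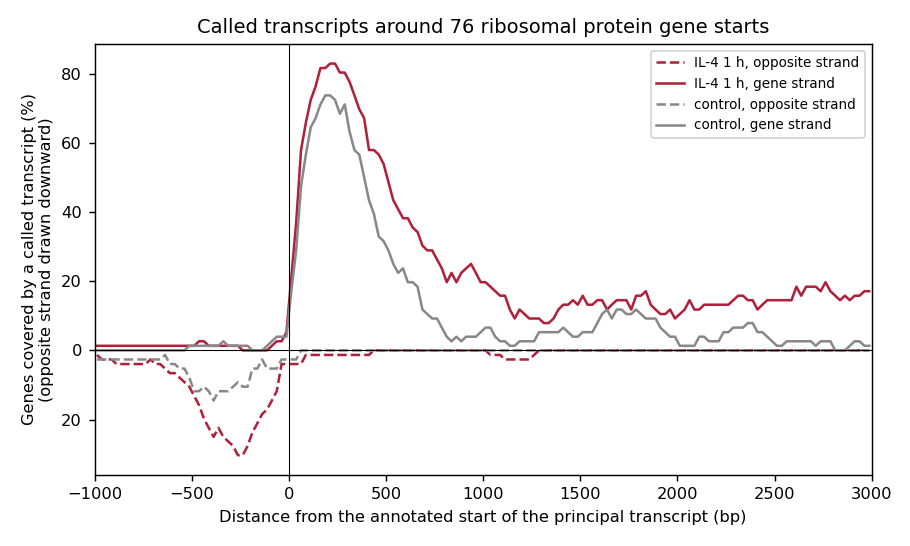
Share of 76 genes of cytosolic ribosomal proteins covered by a called transcript (y axis, percent) in bins of 25 bp by distance from the annotated start of the principal transcript (x axis, bp), for the gene strand (solid lines, upward) and the opposite strand (dashed lines, downward). Both libraries peak just inside the gene, at 73.7% in the control and 82.9% after IL-4, and the IL-4 lines extend farther into the gene.

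Coverage reached farther into the genes in the IL-4 library. Among the 74 genes with a value in both libraries, 22 (29.7%) had an own-strand transcript over the base 500 bp downstream of the start in the control and 40 (54.1%) after IL-4. Over all 7190 annotated genes with own-strand values and a principal start, the shares were 19.5% and 28.9%. At 1000 bp, 4 of the 74 genes (5.41%) were covered in the control and 15 (20.3%) after IL-4, against 7.43% and 11.5% of all genes.

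The own-strand length covered by called transcripts had a median of 409.5 bp per gene in the control and 733.5 bp after IL-4, and it was longer after IL-4 in 60 of 74 genes (81.1%, against 70.3% of all genes). The calls as a whole were longer and more numerous after IL-4, with a median length of 312 bp against 227 bp. The part of that shift in the ribosomal protein genes was not tested.

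Upstream, transcripts on the opposite strand within 1000 bp of the start were called at 17 of the 74 genes (23.0%) in the control and at 30 (40.5%) after IL-4. For all genes the shares were 27.3% and 33.7%. Their scores at the 76 genes had a median of 0.3 in the control and 0.2 after IL-4. Among the 180 control transcripts that carried a member's name 71.1% lay on the strand of the gene (Wilson 95% interval 64.1 to 77.2%). Among the 237 such transcripts of annotated genes after IL-4 the share was 68.8% (62.6 to 74.3%). These intervals cover counting error alone. Within the annotated genes the share was 98.9% in the control and 95.6% after IL-4.

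By HOMER's classes, 21.7% of the 180 control transcripts of members were promoter-TSS transcripts (Wilson 95% interval 16.3 to 28.2%), against 10.8% of all control transcripts. After IL-4 the share was 21.8% of 238 (17.1 to 27.5%), against 10.2% of all. Introns held 52.2% and 51.7% of the member transcripts, against 64.3% and 65.2% of all. The classes of the member transcripts thus differed little between the libraries.

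Across the 74 members, the control score and the score after IL-4 were related on the log2 scale (Pearson's r 0.74, Spearman's rho 0.75), and the centred ratio was lower where the control score was higher (r -0.37, rho -0.43). These are descriptions across genes of the same libraries, and the control score enters both sides of the second one. For gene length and the ratio r was 0.03 and rho -0.07.

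Other genes of the translation machinery gave the following. Of 37 translation factors, 33 had values in both libraries, with a median centred ratio of 0.38, 3 (9.09%) at least 2-fold higher and 0 at least 2-fold lower, against 8.06% and 8.62% of all genes. By name the highest were Eif4g1, the scaffold of the cap-binding complex, with 0.2 and 0.5 (1.70), and Eif3a, a core subunit of eIF3, with 0.3 and 0.7 (1.60). The lowest were Eif3g and Eif4ebp1, the repressor of the cap-binding protein eIF4E, both with 0.5 and 0.2 (-0.94). On the own strand the list had a median of 0.39 over 34 genes. Of these 3 were at least 2-fold higher (8.82%, against 7.82% of all annotated genes) and 0 lower (against 8.3%). There Eif4g1 had 0.4 and 0.6 (0.97) and Eif3a 0.5 and 0.7 (0.87), under the threshold, and Eif3g had 0.2 and 0.2 (0.39), above the median gene.

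Mitochondrial ribosomal proteins, which serve translation inside the organelle, had 70 names, 41 of them with values in both libraries. Their median centred ratio was 0.19, with 4 (9.76%) at least 2-fold higher and 3 (7.32%) at least 2-fold lower, close to the shares of all genes. Mrps15 had 0.7 and 1.8 (1.74) and Mrpl32 had 0.2 and 0.4 (1.38), whereas Mrpl3 had 0.8 and 0.1 (-2.62) and Mrps10 had 2.1 and 0.3 (-2.43). On the own strand 37 genes had a median of 0.19, with 4 higher (10.8%, against 7.82% of all annotated genes) and 1 lower (2.70%, against 8.3%). There Mrps15 had 0.5 and 0.4 (0.07), Mrps10 had no value in both libraries, and Mrpl32 and Mrpl3 kept their scores.

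Ribosome biogenesis factors, which make and process ribosomal RNA and assemble the subunits, had 22 of 39 genes with values in both libraries. Their median of -0.04 was level with the median gene, with 0 at least 2-fold higher and 2 (9.09%, against 8.62% of all genes) at least 2-fold lower. Nop2, an rRNA methyltransferase, had 1.9 and 0.6 (-1.28) and Wdr12 had 0.3 and 0.1 (-1.21). Pes1, a partner of Wdr12 in large subunit maturation, had 0.2 and 0.3 (0.96), and Rrn3, an initiation factor of RNA polymerase I, had 0.4 and 0.5 (0.70). On the own strand neither lower call remained. Nop2 had no value in both libraries and Wdr12 had 0.2 and 0.1 (-0.61). There Ubtf, an RNA polymerase I factor, had 0.8 and 0.2 (-1.61). It was the 1 gene of 20 at least 2-fold lower (5.0%, against 8.3% of all annotated genes).

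The 7 snoRNA host genes outside the family, several of which are also known for a pyrimidine run at the start, had a median of 0.79, with 2 (28.6%, against 8.06% of all genes) at least 2-fold higher. Snhg12 had 0.3 and 0.6 (1.38) and Snhg5 had 0.3 and 0.5 (1.12), while Gas5 had 5.9 and 5.1 (0.17) and Snhg1 had 3.7 and 2.3 (-0.31). On the own strand the median was 0.67, with 2 (28.6%, against 7.82% of all annotated genes) at least 2-fold higher. Snhg1 then had 28.1 and 32.2 (0.58), above the median gene, Snhg12 had 3.2 and 3.9 (0.67), under the threshold, and Snhg8, with 0.6 and 1.3, was at least 2-fold higher. By name, the medians fell from snoRNA hosts to ribosomal proteins with translation factors, then to mitochondrial ribosomal proteins and biogenesis factors. The median that ribosomal proteins and translation factors share, 0.38, is the value of equal scores in both libraries. Whether any of these lists differ from one another was not tested.

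Ribosomal proteins whose gene names fall outside the naming pattern had a median of -0.07 over 4 genes. Fau, a fusion of a ubiquitin-like protein with a small subunit protein, had 0.7 and 0.4 (-0.43), and Gnb2l1, the scaffold protein RACK1, had 1.5 and 1.0 (-0.21). Rpsa, the laminin receptor, had 0.4 and 0.6 (0.96). None of the 4 reached a 2-fold difference, against 8.06% higher and 8.62% lower among all genes. On the own strand the 4 genes had a median of -0.27, with 3 of them below the median gene. There Rpsa had 1.3 and 1.5 (0.59). Again none reached a 2-fold difference, against 7.82% higher and 8.3% lower among all annotated genes. These genes are not among the 76 above.

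**Figure D5:**
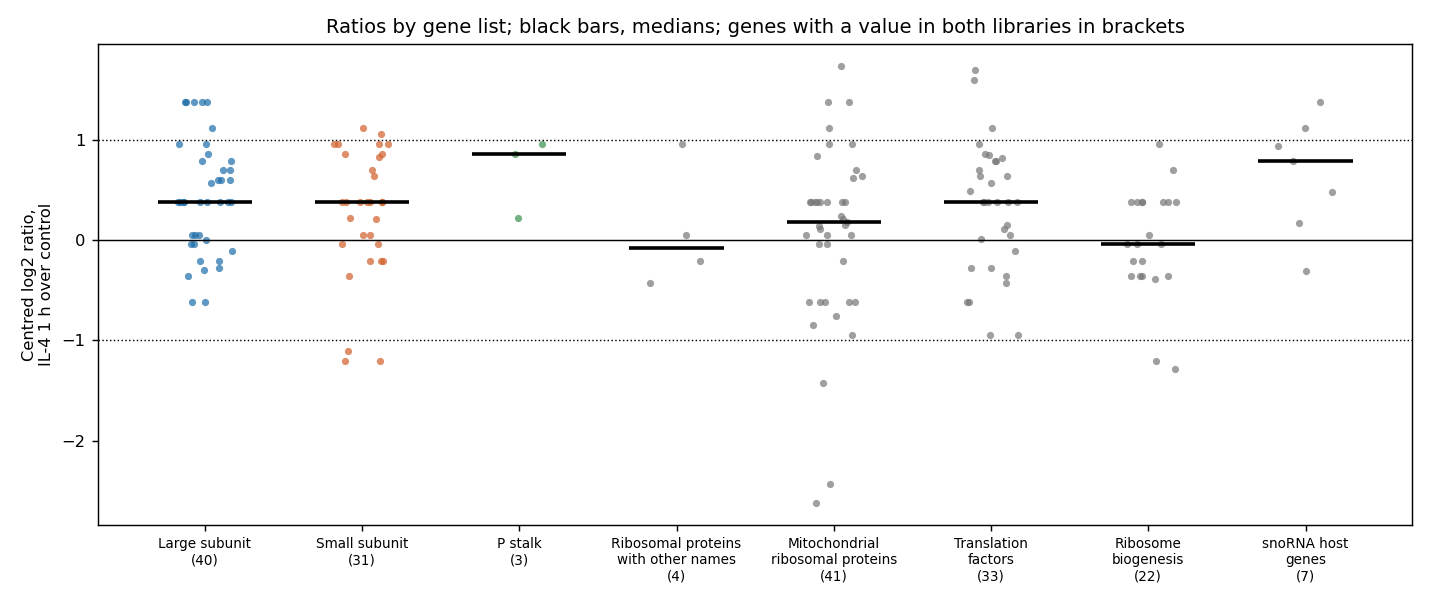
Centred log2 ratio of IL-4 1 h over control (y axis) for ribosomal protein genes by subunit and for the other gene lists (x axis, number of genes with a value in both libraries in brackets); each point is a gene and each black bar a median. The medians of both subunits and of the translation factors are 0.38, that of the biogenesis factors is -0.04, and the mitochondrial ribosomal proteins spread most widely.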

How the data were processed

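Nascent RNA was measured by GRO-seq in 1 control and 1 IL-4 library. The deposited values are a score per called transcript (the peak score of HOMER's annotation table), made by the authors from pooled duplicate run-on reactions. The submitters' processing notes name BWA 0.7.10, SAMtools 0.1.19 and HOMER 4.2 and the mm10 build, with no further settings. The scaling of the scores to library size or length was not stated, and the depth is unknown. Both tables also give positions, an annotation class, the nearest gene and the distance to its start.

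Gene values were the highest score per name. From each log2 ratio (IL-4 over control) the median over all genes present in both libraries was subtracted, and genes at least 2-fold from that median were counted. Every score was given a rounding margin of 0.05 on either side. A score of 0 was left out. Own-strand values used GENCODE vM21 genes and an overlap of at least 1 bp, starts were those of the principal transcript, and promoter sequences came from RefSeq (GRCm38.p6). With 1 library per condition no test was made, and shares of members stand beside the same shares over all genes. Genes were named by rule: the 8 highest and 8 lowest ratios, the 6 highest control scores, members of 1 library alone at or above the median gene score of that library, and the reference genes Rplp0, Rpl13a, Rps18 and Rpl32, with the 2 highest and 2 lowest ratios of each other list. Further genes were named after their values were seen. Members and lists were chosen with earlier results of these data known. The steps were tested on data simulated from genes with control scores of at least 1 and with changes larger than 2-fold. Lower control scores, where most members lie, were not covered. Python 3.11.15, pandas 2.3.3, numpy 2.4.6, scipy 1.17.1 and matplotlib 3.10.9 were used. Other values per gene, scalings, filters and member sets were tried as alternatives. Some single genes that the rule covers are not reported here by name.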

Additional observations from a re-analysis of the deposited data

How the results depend on the processing

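No paired analysis was possible because each condition has 1 library. Whether the median of the family lies above 0 depends on the centring. With no centring, the median log2 ratio of the ribosomal protein genes was 0.0, with 5 at least 2-fold higher and 5 at least 2-fold lower (6.76% each, against 5.98% and 24.3% of all genes). When ratios were centred instead on the summed score times length of all transcripts without Rn45s and the mitochondrial genome, the median was -0.0853, with 0 higher (against 2.52% of all genes) and 5 lower (against 24.6%). Both settings shift every ratio by the same amount, so by construction they cannot change the position of the family relative to the median gene. By the transcript nearest the start, the median was 0.0 with 7 lower (9.46%, against 27.7%). The number at least 2-fold higher was 21 by summed score times length (28.4%, against 17.2% of all genes), 14 by the sum of scores (18.9%, against 13.6%), 5 among genes of at least 0.3 in both libraries (8.33%, against 5.65%), 2 over the whole rounding range (2.7%, against 3.67%) and 15 on the own strand without transcripts over snoRNAs (21.1%, against 11.8%). The number at least 2-fold lower was 0 by promoter, 5′ UTR, exon 1 and intron 1 transcripts, by own-strand overlap with or without transcripts over snoRNAs, over the whole rounding range and among members with both highest transcripts in the gene or upstream, where all genes had 3.85% to 9.35%, and 6 with missing values set to the lowest score, 0.1 (7.32%, against 12.3%). The 15 genes without snoRNA transcripts were among 71 members by the name rule, which include paralogs. The 12 of 69 given above were cytosolic ribosomal protein genes alone. Of those 12, 5 stood at exactly 2-fold and 2 stayed higher over the whole rounding range. The settings without snoRNA transcripts and by place of the highest transcript were chosen after seeing the data. The share of transcripts on the strand of the gene was 98.9% (control) and 95.6% (IL-4) within the annotated genes, and 78.4% after IL-4 at a score of at least 0.3. The cause of these shifts was not tested. Of 14 alternatives that give a median, 11 kept it above 0. The share at least 2-fold higher exceeded that of all genes under 12 of 15 alternatives. The share at least 2-fold lower was below that of all genes under all 15. The alternatives include both changes of centring and all use the same libraries. Scores of 0.1 to 0.3 move by large ratios with 1 step of rounding, which limits single genes.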
